A study of Mus musculus with 6 samples.

Results

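A set of 10 transcription factor genes of the corneal surface epithelium was read in whole corneas of newborn mice: the zinc finger factors Klf4, Klf5 and Klf6, the ETS factors Ehf and Elf3, the p53-family factor Trp63, Grhl3, Ovol1, Foxc1 and Tfap2a. These 10 genes were chosen by name out of 19938 genes that the array annotation pairs with a probe set of their own. Each of them had 1 probe set, so none was chosen among several. The corneas came from pups at postnatal day 3, and RNA was hybridised to Affymetrix Mouse Gene 1.0 ST arrays, 3 for wild-type (WT) animals and 3 for littermates with the K14-DN-Clim transgene. The transgene encodes a dominant-negative form of CLIM, a cofactor of LIM-domain proteins, and K14 is the keratin 14 promoter, which is active in basal cells of stratified epithelia and not in the stroma. The title of the series places the comparison in Wnt signalling and the upkeep of corneal epithelial stem cells. The strain is not given in the sources used here, nor is whether an array holds 1 animal or a pool, so the spread between arrays may be partly technical.

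The corneal epithelium is a stratified sheet that is renewed from basal progenitors. Trp63 marks and sustains these basal cells. Klf4, Klf5, Ehf, Elf3, Grhl3 and Ovol1 are known for the maturation and barrier of surface epithelia, and loss of Klf4 or Klf5 in the mouse eye surface disturbs the cornea. Foxc1 and Tfap2a act earlier as well, in the periocular mesenchyme and in surface ectoderm and neural crest.

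No member passed the test at an adjusted p of 0.05. The means of 9 of the 10 were lower in DN-Clim and the mean of 1, Tfap2a, was higher, with a median difference of -0.37 on the log2 scale. Over all genes with a probe set the median difference was -0.03, and 57.2% of the annotated probe sets had a difference below 0. All values are log2(intensity + 16), where the offset of 16 shrinks the differences of dim probe sets, and each difference subtracts the WT mean from the DN-Clim mean. The limma adjusted p-values of the members ran from 0.819 (Foxc1) to 0.999. Over the whole table, 3 of 23410 probe sets passed (0.0128%), so a count of 0 in 10 is near the background. At an unadjusted p under 0.05, 1 member (Foxc1) was counted, where 5.94% of all probe sets were. Without DN-Clim replicate 3, 0 members passed where 2.06% of all probe sets did, and with that array alone against WT 0 passed where 0.337% did. Weighting the arrays called 0 members (8.8% of all probe sets) by limma's gene-by-gene method, and 3, Klf6, Ovol1 and Tfap2a (38.5% of all probe sets), by its default method, which did not converge.

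The arrays also differed in marker genes of other cell types and tissues. Whether these differences come from genotype was not tested. The mean level of 21 lens genes was 11.53 on DN-Clim replicate 1, 11.73 on DN-Clim replicate 2 and between 8.01 and 8.98 on the other 4 arrays. Cryaa, a lens crystallin, read 14.25, 13.96 and 8.86 on the DN-Clim arrays and 8.85 to 9.59 in WT. No lens list gene differed past the threshold, and 0 of 21 were below 0. The median difference of 23 keratocyte and stromal genes, which include the corneal proteoglycans Kera and Lum, was -1.07 and -1.85 on replicates 1 and 2 and -0.06 on replicate 3. The 12 retina genes measured were all above 0, with medians of 1.08, 1.46 and 0.24 on the 3 DN-Clim arrays. Of 18 vascular endothelial genes, 15 were below 0, with medians of -0.51, -0.56 and -0.22. Emcn, an endothelial surface sialomucin, was the 1 gene of any list here that passed (-2.44, SE 0.198, limma adjusted p = 0.0113). All 16 macrophage genes were below 0, at -0.29, -0.40 and -0.23, and the 9 corneal endothelial genes lay at -0.07, 0.02 and 0.14. On DN-Clim replicates 1 and 2 the lens and retina medians were high, as was Tfap2a, and the stromal, vascular and macrophage medians were low, as were most other members. The part of these lists in the members' differences was not tested, and a fit with the lens level as a covariate cannot separate it from genotype. Krt12, the keratin of corneal epithelium, read 11.04 to 11.95 on the 6 arrays. The labels state that RNA purity was checked by PCR for markers of neighbouring tissues. In whole-cornea RNA, fewer cells of a type and less RNA per cell cannot be told apart.

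Of the 3 Kruppel-like factors, Klf4 drives differentiation genes of surface epithelia. WT replicates 1, 2 and 3 gave 8.93, 8.73 and 8.33, and the DN-Clim replicates, in the same order here and below, gave 8.38, 7.74 and 8.86. The groups overlapped, and DN-Clim replicate 3 lay above 2 of the WT arrays. The difference was -0.34 (SE 0.294, 95% confidence interval -1.0 to 0.32). Without DN-Clim replicate 2 it was -0.05.

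Klf5, a relative of Klf4 that is linked to proliferating basal cells, had levels of 10.10, 10.02 and 9.86 for WT and 9.86, 8.85 and 9.69 for DN-Clim. All 3 DN-Clim arrays were below the WT mean of 9.99, and replicate 1 equalled the lowest WT array to 2 decimals. The difference was -0.52 (SE 0.267, 95% interval -1.13 to 0.08), a ratio of 0.695 between DN-Clim and WT. It was -0.22 without DN-Clim replicate 2, the array on which Klf5 was lowest.

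Klf6, a widely expressed Kruppel-like factor, was the member with the tightest arrays in DN-Clim. The WT arrays gave 10.92, 10.67 and 10.61, against 10.24, 10.39 and 10.41 on the DN-Clim arrays. WT and DN-Clim did not overlap, and the lowest WT array exceeded the highest DN-Clim array. The difference was -0.39 (SE 0.18, 95% interval -0.80 to 0.02, limma adjusted p = 0.862). Leaving out any single array kept it between -0.45 and -0.29.

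Ehf and Elf3 belong to the ETS factors that are largely restricted to epithelia. Ehf had levels of 10.56, 10.20 and 10.05 for WT and 10.01, 9.58 and 10.43 for DN-Clim. Elf3 had levels of 8.53, 7.98 and 7.97 for WT and 7.79, 7.47 and 8.19 for DN-Clim. For both genes DN-Clim replicates 1 and 2 lay below every WT array, while replicate 3 lay above WT replicates 2 and 3. Ehf differed by -0.26 (SE 0.251, 95% interval -0.83 to 0.30), and by -0.05 without DN-Clim replicate 2. Elf3 differed by -0.34 (SE 0.247, 95% interval -0.90 to 0.21), and by -0.17 without that array.

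Trp63, the basal cell factor, had the widest spread in DN-Clim. Levels of 10.70, 10.43 and 9.83 were found for WT, against 10.32, 9.22 and 10.59 for DN-Clim. Only replicate 2 was below the lowest WT array, and replicate 3 was above WT replicates 2 and 3. The difference was -0.28 (SE 0.364, 95% interval -1.10 to 0.54), and it turned to 0.13 without DN-Clim replicate 2. The annotation of the Trp63 probe set lists 8 RefSeq mRNA accessions, so forms of p63 with and without the transactivation domain cannot be told apart.

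Grhl3, a grainyhead-like factor of barrier formation, had levels of 9.33, 8.44 and 9.09 for WT and 9.16, 8.39 and 8.04 for DN-Clim. It was the member for which DN-Clim replicate 3 was the lowest of the 6 arrays. The difference of -0.42 (SE 0.325, 95% interval -1.15 to 0.31) was smaller than the WT range of 0.89. It was -0.17 without DN-Clim replicate 3, and -0.73 without DN-Clim replicate 1.

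Ovol1, a zinc finger factor that helps progenitors leave the cell cycle in skin, had levels of 8.02, 7.47 and 7.69 for WT and 7.19, 7.45 and 7.28 for DN-Clim. WT and DN-Clim did not overlap, although WT replicate 2 and DN-Clim replicate 2 were close. The difference was -0.42 (SE 0.202, 95% interval -0.88 to 0.03, limma adjusted p = 0.879). Klf6 and Ovol1 were the 2 members whose DN-Clim arrays all lay below WT, where 6.95% of all probe sets did so. In the other direction, where 3.2% of probe sets did not overlap, 0 members were found. This count has no test of its own.

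Foxc1, a forkhead factor of the anterior eye segment that is needed for a clear cornea, had the largest difference in size. Its levels were 9.25, 9.10 and 8.89 for WT and 8.95, 7.79 and 8.41 for DN-Clim. Replicates 2 and 3 lay below every WT array, and replicate 1 lay above WT replicate 3. The difference was -0.70 (SE 0.283, 95% interval -1.34 to -0.06), a ratio of 0.617, with an unadjusted p of 0.0353 and a limma adjusted p of 0.819. It was -0.40 without DN-Clim replicate 2 and -0.98 without DN-Clim replicate 1. On DN-Clim replicates 1, 2 and 3, Foxc1 differed from its WT mean by -0.13, -1.29 and -0.67, where the stromal list was at -1.07, -1.85 and -0.06. The part of the stroma in the Foxc1 difference was not tested.

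Tfap2a, the AP-2 factor of surface ectoderm, lens and neural crest, was the 1 member with a higher mean in DN-Clim. The WT arrays gave 9.74, 9.52 and 10.17, against 10.29, 10.74 and 9.82 on the DN-Clim arrays. Replicates 1 and 2 lay above every WT array, and replicate 3 equalled the WT mean to within 0.01. The difference was 0.47 (SE 0.272, 95% interval -0.14 to 1.09, limma adjusted p = 0.942). The 2 high DN-Clim arrays were those with the high lens level, and the highest WT array, replicate 3, also had the highest lens level in WT (8.98). With the mean lens level as a covariate, the Tfap2a difference was 0.09. That covariate itself sets DN-Clim replicates 1 and 2 apart from the other arrays, so lens level and genotype cannot be told apart in this fit. The cause of the Tfap2a difference was not tested.

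**Figure D1:**
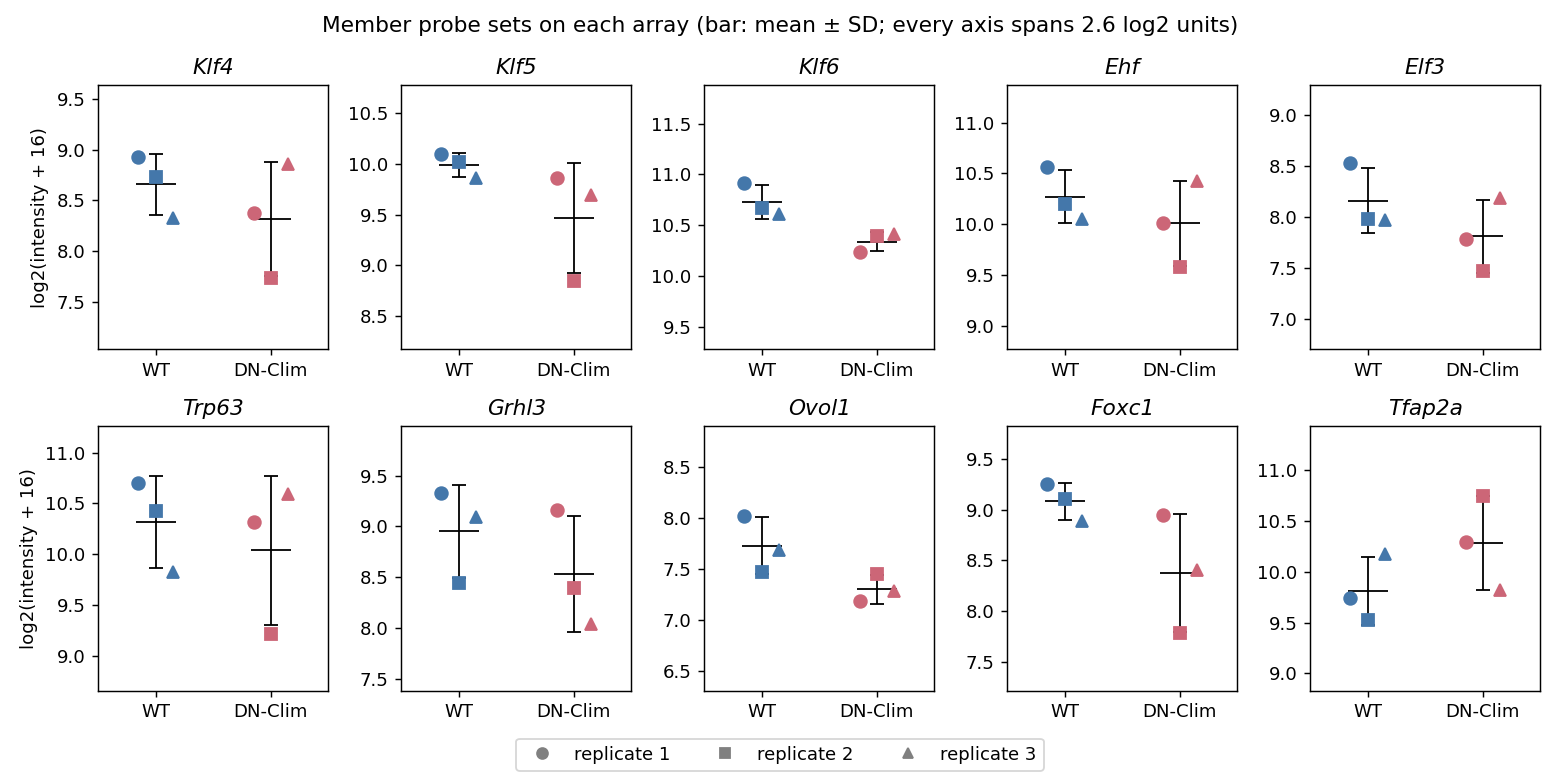
Each panel shows 1 gene, with log2(intensity + 16) on the vertical axis for 3 WT arrays (blue) and 3 DN-Clim arrays (red); marker shapes give the replicate number, the bar is the mean and the whiskers are 1 SD. Klf6 and Ovol1 have no overlap between the groups, Tfap2a is highest on DN-Clim replicate 2 (10.74), and Trp63, Klf4, Klf5, Ehf, Elf3 and Foxc1 are lowest on that array.

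Promoter sequences from RefSeq (GRCm38.p6) were held for 6 of the 10 members, with 7 start sites because Tfap2a is listed with 2. The 250 bases before each start were searched on both strands, over 32851 start sites. The Kruppel-like motif CACCC was found at 4 of the 7 member starts, where 52% of all starts held it. The AP-2 motif GCCNNNGGC was found at 2 of the 7, where 13.7% held it, once each at Klf4 and Foxc1. The LIM homeodomain motif TAATTA, whose factors are partners of CLIM proteins, was found at 1 of the 7, the more upstream start of Tfap2a, where 4.84% held it. The ETS motif CGGAAG (13.6% of all starts), the grainyhead motif AACCNGTT (1.79%), the Ovo motif CCGTTA (2.18%) and the forkhead motif GTAAACA (3.17%) were not found in these windows. None of these motifs was searched for beyond the windows, and a match is a description only.

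Elf3 and Grhl3 are printed because they hold the most CACCC matches (2 and 3), and the more upstream start of Tfap2a because it holds the TAATTA match and belongs to the 1 member with a higher mean. Each is given 5′ to 3′ in the direction of the gene and ends at the base before the start. Capitals mark CACCC or its reverse complement GGGTG, and TAATTA. Elf3 is chr1:135258473-135258722 on the minus strand, Grhl3 is chr4:135573633-135573882 on the minus strand, and Tfap2a is chr13:40734921-40735170 on the minus strand.
Elf3: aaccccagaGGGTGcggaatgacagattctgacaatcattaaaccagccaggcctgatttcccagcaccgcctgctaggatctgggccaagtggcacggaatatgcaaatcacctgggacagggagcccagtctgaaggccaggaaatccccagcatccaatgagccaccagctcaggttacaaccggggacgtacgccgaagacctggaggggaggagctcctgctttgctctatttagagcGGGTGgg
Grhl3: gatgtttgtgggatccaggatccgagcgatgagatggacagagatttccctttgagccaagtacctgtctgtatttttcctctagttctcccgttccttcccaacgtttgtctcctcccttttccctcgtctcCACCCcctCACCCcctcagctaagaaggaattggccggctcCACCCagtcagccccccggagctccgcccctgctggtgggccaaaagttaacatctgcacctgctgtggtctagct
Tfap2a: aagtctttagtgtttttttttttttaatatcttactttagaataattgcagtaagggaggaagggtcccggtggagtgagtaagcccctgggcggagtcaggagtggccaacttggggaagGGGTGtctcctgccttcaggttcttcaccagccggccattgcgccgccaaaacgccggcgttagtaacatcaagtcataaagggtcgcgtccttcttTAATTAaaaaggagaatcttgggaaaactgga

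The order of the arrays was alike for most members. WT replicate 1 was the highest of the 6 arrays for 9 members, all except Tfap2a. DN-Clim replicate 2 was the lowest for 6 members. The median over all probe sets was also lowest on DN-Clim replicate 2 (7.95), and it was 8.13 on WT replicate 1 and highest on DN-Clim replicate 3 (8.21). The share of all genes with this order was not counted, so the order may not be particular to the members. On DN-Clim replicate 3, by contrast, 5 members were above the WT mean, against 2 on replicate 1 and 1 on replicate 2. The mean level of the 10 members was 9.61, 9.26 and 9.25 for WT and 9.22, 8.76 and 9.17 for DN-Clim.

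Profiles over the 6 arrays, each centred on its own mean, were compared by their root mean square distance, as a description. The closest pair was Ehf and Elf3 (0.08 log2 units), both ETS factors. Klf6 and Ovol1 were 0.11 apart, Klf4 and Ehf 0.12, Klf5 and Foxc1 0.14, and Klf4 and Trp63 0.16. The farthest pair was Trp63 and Tfap2a (0.89). Among 11672 other genes with a mean of at least 8, the profile nearest to Klf4 was that of Ephb4 (0.05), followed by Cdc42ep5 and Grhl2 (both 0.06), the last a grainyhead-like factor. Myo1c was nearest to Trp63 (0.05), with Lgals9 and Mid2 next (both 0.13). Nearest to Foxc1 were Anxa7 (0.10), the tight junction gene Cldn4 and Cys1 (both 0.11). With 6 arrays and this many genes, close profiles are easily found.

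Genes shared by epithelia, structural and other, were read as a measure of the epithelium on each array. Of 20 pan-epithelial genes, among them Epcam, Cdh1 and junction genes, 19 were below 0 and 0 passed the threshold. The median difference was -0.42, beside -0.37 for the members. In 7 of the 20 all DN-Clim arrays lay below WT, where 6.95% of all probe sets did so, and in 0 all lay above, where 3.2% did. No test of the list was made. Their mean level was 10.23, 9.83 and 9.74 for WT and 9.64, 9.23 and 9.61 for DN-Clim. WT replicate 1 was thus the highest and DN-Clim replicate 2 the lowest array for this list, the same 2 arrays that were extreme for most members. Each array was also centred on this list. Krt5 and Krt14 of the list are also counted below as downstream of Trp63, and Dsp as downstream of Klf4, Klf5 or Pax6. The centring therefore cannot tell the amount of epithelium from the activity of the factors.

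Centring on the pan-epithelial genes added 0.44 to the difference of every probe set, not only of the members. The median over all annotated probe sets, -0.04 on the deposited scale, rose with it, so most probe sets were above 0 after centring. A sign above 0 on that scale is thus not particular to the members. On that scale 9 of the 10 members differed by less than 0.3, and the sign turned to above 0 for Klf4, Klf6, Ehf, Elf3, Trp63, Grhl3 and Ovol1. These 7 differences ran from 0.01 (Ovol1) to 0.17 (Ehf). Klf5 differed by -0.09 (SE 0.287) and Foxc1 by -0.26 (SE 0.291). The intervals stayed wide, for example -0.51 to 0.70 for Klf4 and -0.48 to 0.79 for Trp63, so differences of that size in either direction were not resolved. Tfap2a differed by 0.91 (SE 0.34, 95% interval 0.21 to 1.62), with an unadjusted limma p of 0.0137 and an adjusted p of 0.327. Of that difference, 0.44 is the shift given to every probe set. How many of all probe sets had an interval without 0 on this scale was not counted. Relative to the list, Tfap2a stood at -0.49, -0.31 and 0.43 on the WT arrays and at 0.65, 1.51 and 0.21 on the DN-Clim arrays. DN-Clim replicate 3 therefore lay below WT replicate 3, and the groups overlapped on this scale too.

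**Figure D2:**
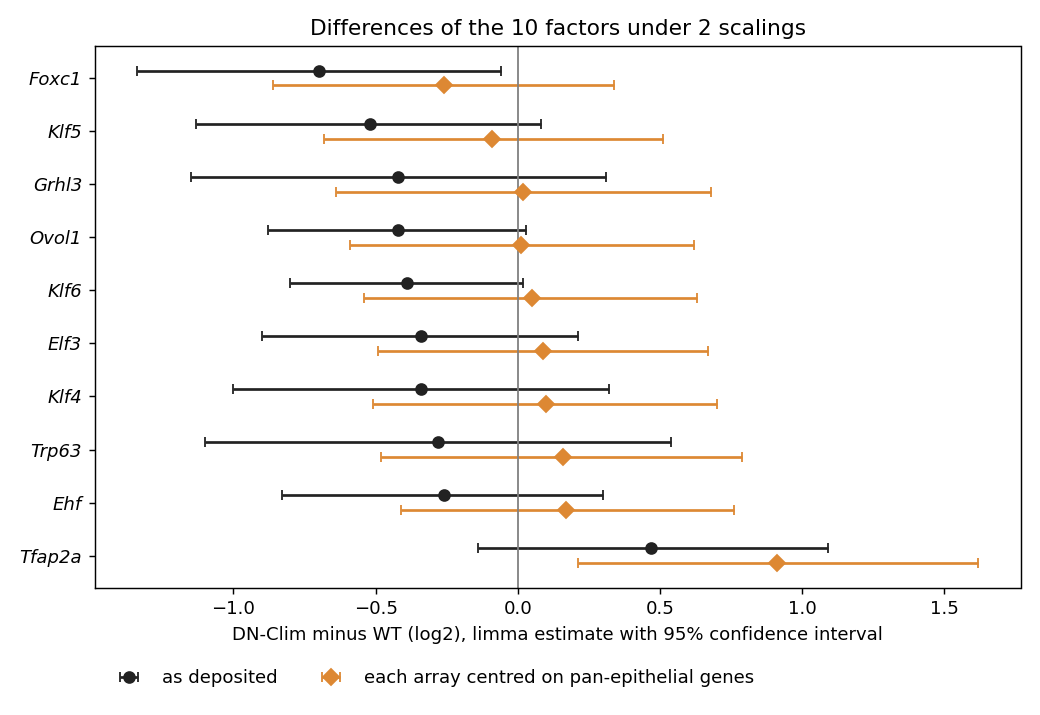
The horizontal axis is the difference DN-Clim minus WT in log2 units, with 95% confidence intervals from limma, for the deposited scale (black circles) and after centring each array on 20 pan-epithelial genes (orange diamonds). On the deposited scale Foxc1 has the 1 interval that leaves out 0 (-1.34 to -0.06), as had 5.94% of all probe sets. After centring Tfap2a has it (0.21 to 1.62), and the share of all probe sets was not counted on that scale. Centring adds 0.44 to the difference of every probe set.

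The paralogues of the members were read in the same way, and none passed the threshold. Of the 17 Kruppel-like genes, 13 were below 0, with a median of -0.11. Apart from the 3 members, the differences ran from -0.34 for Klf9 to 0.55 for Klf12. Klf12, a repressor of the family, had levels of 9.58, 9.55 and 10.04 for WT and 10.36, 10.75 and 9.70 for DN-Clim, and it was highest on the arrays with the high lens level, as was Tfap2a. Klf8 differed by -0.28 and its groups did not overlap. With Klf6 it made 2 of the 17 with all DN-Clim arrays below WT, where 6.95% of all probe sets did so.

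Among the other ETS factors of epithelia, Elf5 differed by -0.43 (SE 0.177, limma adjusted p = 0.82), and its DN-Clim arrays all lay below WT. Spdef differed by -0.03. Grhl1, which acts on desmosomal genes in skin, differed by -0.61 (SE 0.238, limma adjusted p = 0.802) without overlap, with levels of 9.17, 8.64 and 8.58 for WT and 7.95, 8.07 and 8.54 for DN-Clim. The difference of Grhl2 was -0.30, so that all 3 grainyhead-like genes were below 0 on the deposited scale, and after the epithelial centring only Grhl1 was. Trp73, a relative of Trp63, differed by -0.16, Ovol2 by -0.11 and Ovol3 by 0.03.

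Foxc2, the closest relative of Foxc1, had the largest difference of all the paralogues (-1.42, SE 0.484, limma adjusted p = 0.745). Levels of 9.70, 8.57 and 8.78 were found for WT, against 8.69, 6.63 and 7.48 for DN-Clim. As for Foxc1, DN-Clim replicates 2 and 3 lay below every WT array and replicate 1 did not. The AP-2 genes were the family with the largest share of genes above 0, at 4 of 5. Tfap2c differed by 0.24, Tfap2d by 0.31, Tfap2e by 0.05 and Tfap2b by -0.10, and each of these groups overlapped.

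**Figure D3:**
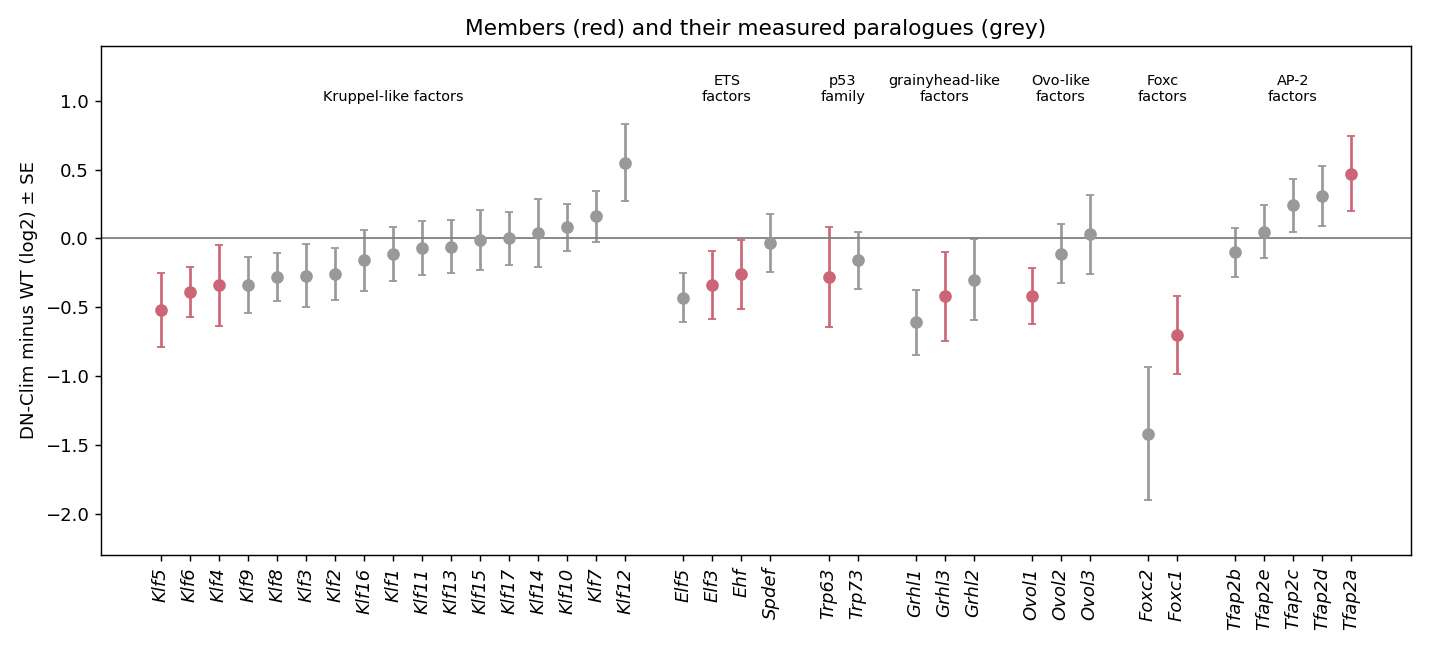
Points are differences DN-Clim minus WT in log2 units with 1 SE, for the 10 members (red) and the measured paralogues of their families (grey), ordered within each family. The lowest point is Foxc2 (-1.42) and the highest is Klf12 (0.55); the 4 ETS points and the 3 grainyhead-like points lie below 0, and the AP-2 points lie above it except Tfap2b.

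Genes known to lie downstream of the factors were also mostly below 0, with none past the threshold. The medians of both lists below are above 0 when 0.44 is added by the epithelial centring, as is the median over all probe sets. The list used for centring shares Krt5, Krt14 and Dsp with these lists. Of 17 genes linked to Klf4, Klf5 or Pax6, 15 were below 0, with a median of -0.21. Upk1b, a uroplakin of surface epithelia, was the 1 gene of that list whose groups did not overlap (-0.50, SE 0.226). In 6.95% of all probe sets all DN-Clim arrays lay below WT, and in 3.2% all lay above, so this count is near the background. Relative to the WT mean, the median of the list was -0.21 on DN-Clim replicate 1, -0.61 on replicate 2 and -0.02 on replicate 3. Krt12 differed by -0.03. The largest differences of the list were those of Krt4 (-1.52, SE 0.772) and Aldh3a1 (-1.09, SE 0.388), whose groups overlapped.

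Of 20 basal genes linked to Trp63, 17 were below 0, with a median of -0.21. Krt14, whose promoter drives the transgene, differed by -0.63 (SE 0.208), and the integrin gene Itga6 by -0.49 (SE 0.218), both without overlap. The adhesion gene Nectin1 differed by 0.51 (SE 0.212) in the other direction, also without overlap. In 3 of the 20 all DN-Clim arrays lay below WT, where 6.95% of all probe sets did so. All lay above in 1, where 3.2% did. The median of the list was -0.08 on DN-Clim replicate 1, -0.54 on replicate 2 and 0.11 on replicate 3, so that replicate 2 was again the low array, as it was for Trp63 itself.

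Of 29 other transcription factors of surface epithelia, 23 were below 0, with a median of -0.16 and none past the threshold. In 3 of the 29 all DN-Clim arrays lay below WT, where 6.95% of all probe sets did so, and in 2 all lay above, where 3.2% did. Cebpd, a factor linked to quiescent limbal progenitors, differed by -0.72 (SE 0.242). Tbx3 differed by 0.48 (SE 0.241). Sox2, a progenitor factor of the eye, differed by 1.93 (SE 0.9), but this rested on DN-Clim replicate 1, which read 12.54 where the other 2 DN-Clim arrays read 8.58 and 8.51 and WT 7.75 to 8.32.

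**Figure D4:**
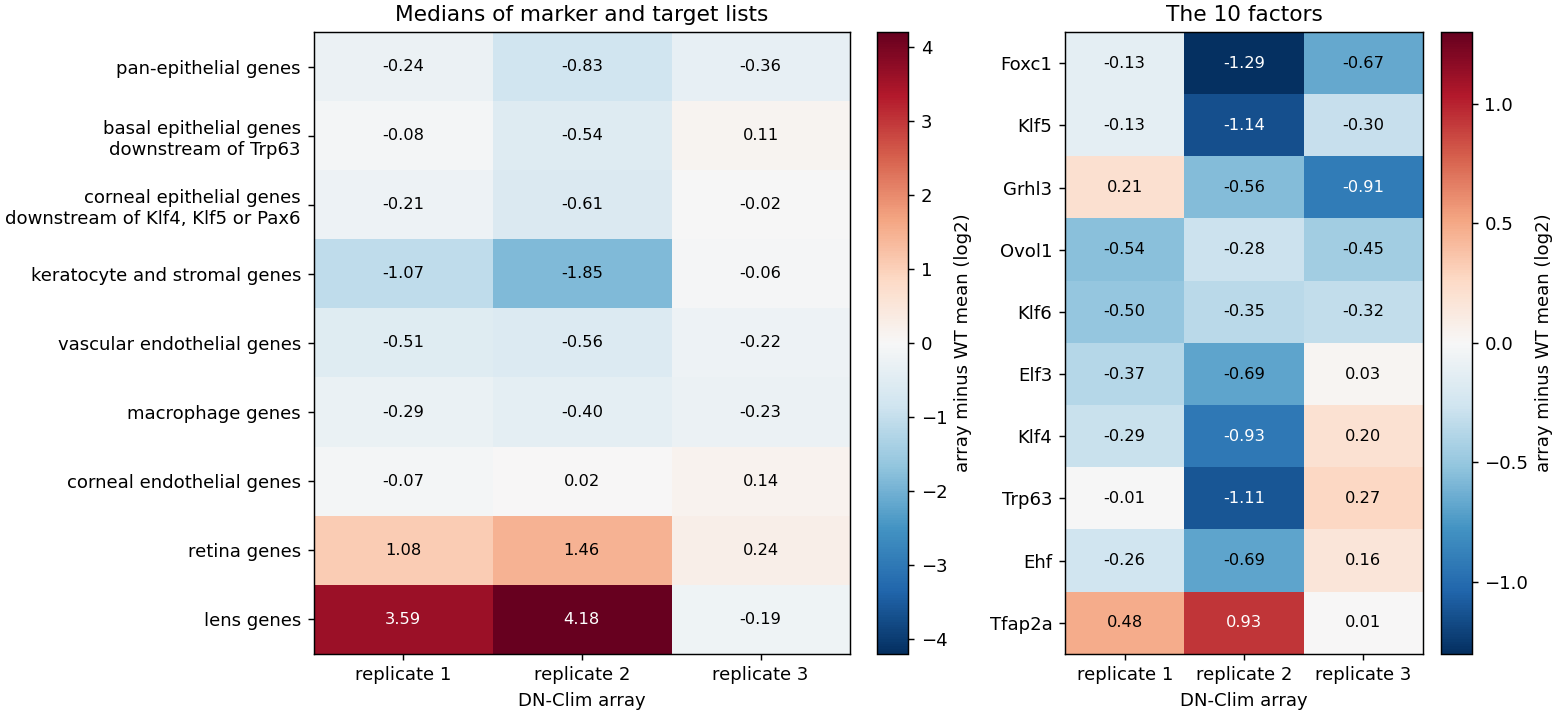
Colours and printed values give log2 differences from the WT mean on each DN-Clim array, as medians of marker and target lists (left, scale to 4.2) and for the 10 factors (right, scale to 1.3). Replicate 2 has the lowest epithelial medians (-0.83 for pan-epithelial genes) and the lowest values of most factors, and replicates 1 and 2 have the high lens medians (3.59 and 4.18).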

How the data were processed

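Each deposited value is the linear intensity of a probe set, made with Affymetrix Expression Console 1.1 and PLIER, per the submitters' processing notes. How background was corrected and arrays were normalized is not given in the sources used here. Values were taken as log2(intensity + 16). Array medians differed by at most 0.267 on this scale and were not changed. Of 35557 probe sets, the platform annotation named 23410, of which 21789 had 1 symbol. The 23410 were compared between DN-Clim and WT by lmFit and eBayes of limma 3.58.1 (R 4.3.3), and p-values were adjusted over all of them by Benjamini-Hochberg, with a threshold of 0.05. The fit was run on simulated data with independent noise for each probe set. Those data lack the tissue differences that these arrays share across genes, so they do not show how the fit performs here. Each list gene is read by its probe set of highest mean, and lists have no test of their own. All 10 members are named, and some of their paralogues. From target and pathway lists, the genes named were those past the threshold or, if none, up to 3 with the largest difference and no overlap. From cell type lists they were the first genes listed. Emcn, Krt12, Krt4 and Aldh3a1 fall outside this rule and were named after their values were seen. Only symbols with an own probe set were used, and 1 gene was matched through a newer symbol. The members, lists and alternatives were chosen with earlier results of these data known. The number of arrays limits the precision.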

Additional observations from a re-analysis of the deposited data

How the results depend on the processing

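Besides the settings of the report, each member difference was computed under 19 others, of which array weights by the gene-by-gene method were added after seeing the data. Of 190 such values, 170 kept direction and side of the threshold, 17 turned direction and 3 passed. Some settings change only the test, so the difference and its direction were fixed in advance. These were the filter on mean level, all probe sets of the table, the trended robust prior and the replicate block. The 170 therefore overstate how often the direction was open to change. The 3 were Klf6 (-0.47), Ovol1 (-0.45) and Tfap2a (0.58) with limma's default array weights, whose fit did not converge and gave DN-Clim replicate 1 a weight of 34.9, and which called 9004 of all probe sets (38.5%). The gene-by-gene weights called 2059 probe sets and 0 members. Centred on pan-epithelial genes, Klf4 was 0.10, Klf6 0.05, Ehf 0.17, Elf3 0.09, Trp63 0.16, Grhl3 0.02 and Ovol1 0.01. With the lens covariate Klf4 was 0.10, Ehf 0.08 and Trp63 0.20. With DN-Clim replicate 3 alone against WT, that sample being assumed to vary like WT, Klf4 was 0.20, Ehf 0.16, Elf3 0.03 and Trp63 0.27. Grhl3 was 0.38 with default weights and 0.24 with gene-by-gene weights. Without single arrays Trp63 ran from -0.56 to 0.13, the latter without DN-Clim replicate 2. Klf5, Foxc1 and Tfap2a kept their direction in all 19, which include the settings that could not change it. The cause of these turns was not tested.

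The count over all probe sets was 3. It was 1 with quantile normalization, 0 with all probe sets of the table, 5 with a trended robust prior, 79 with replicate 3 alone, and from 0 to 483 without single arrays, the latter without DN-Clim replicate 3 and 0 without any other. With the replicate number as a replicate block it was 9, with 0 members. The labels do not state whether the numbers pair the samples. Deviations from the group means correlated at 0.017, -0.206 and -0.436 for numbers 1, 2 and 3, which cannot decide it with 3 arrays per group. Since each member has 1 probe set, the choice between probe sets gave no other value.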
